A study of Mus musculus with 23 samples.

Results

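The genes described here are 38 transcriptional targets and regulators of p53 outside the CDK inhibitors, matched by symbol to a list that was drawn up with earlier results of these data known. All 38 symbols were found among the 22517 named genes of both deposited tables, and all 38 were tested by the authors in both comparisons. The transcription factor p53, encoded by Trp53, is held at a low level by the ubiquitin ligase Mdm2 and its relative Mdm4, and is stabilised after DNA damage or oncogenic stress, in the latter case through Arf, a product of the Cdkn2a locus. Stabilised p53 binds response elements near its targets, whose products halt the cell cycle, repair DNA, dampen growth signalling or start apoptosis. Several targets, among them Mdm2 and the phosphatase gene Ppm1d, feed back on p53 itself. In the intestine this response is best known in crypt cells after irradiation.

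Of the series, 9 RNA libraries are used here, 3 in each of 3 groups, all from B6;129 mixed mice given 1 to 2 mg tamoxifen on 5 consecutive days. Wild-type villus is epithelium of EedF/F; Cre- mice, and Eed-null villus is epithelium of EedF/F; Villin-CRE mice, in which the recombinase is expressed in gut epithelium. Eed encodes a core subunit of Polycomb repressive complex 2, which places the repressive histone mark H3K27me3. Intestinal stem cells (ISC) came from Eed+/+; Lgr5-EGFP-IRES-CREERT2 mice and were sorted for high GFP after enzymatic dissociation of crypts, whereas villus epithelium was frozen without sorting. All tissue was taken from the proximal intestine, and the ages of the mice and the interval after tamoxifen are not given in the labels. Only the Eed-null mice carried Villin-CRE, so loss of Eed and Cre activity cannot be told apart. Between villus and ISC the cell type, the Eed alleles (EedF/F and Eed+/+), the Cre transgene, dissociation and sorting differ together. Levels of Xist and of Y-linked genes differ there too, and their values are given below.

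Each table gives 1 value per group in RPKM, which scales the reads of a gene by its length and by the mapped reads of the library, so neither the spread between libraries nor their depth is known. The only measure of error is the authors' q, their p-value adjusted over all tested genes. A gene is called here, and is said to have risen or fallen, where it was tested and its q is 0.05 or lower. Eed was lower in Eed-null villus, at 3.00 against 9.17 RPKM (q = 6.29e-06 in the authors' deposited table). All 8 enterocyte markers were called higher in villus than in ISC and all 7 stem cell markers higher in ISC. Markers of mesenchyme summed to 1.48 RPKM in wild-type and 2.30 RPKM in Eed-null villus, and of endothelium to 0.158 and 0.180 RPKM, with Cdh5 and Kdr listed at 0 in wild-type villus. Goblet cell markers summed to 5593 RPKM in wild-type and 10051 RPKM in Eed-null villus. Of these markers 3 of 6 were called higher (50%), beside 7.9% of all tested genes. Enterocyte markers summed to 35054 and 25354 RPKM in the same order, with a median log2 ratio of -0.45 and Lct, the lactase gene, called lower. Among markers of other epithelial cells, 1 of 7 for stem cells (Olfm4) and 1 of 5 for enteroendocrine cells (Gcg) were called lower, 1 of 5 for Paneth cells (Ang4) was called higher, and 0 of 4 for tuft cells were called. Of 8 leukocyte markers, Gzmb was called lower and the median log2 ratio was -0.61. Their sum was 255 RPKM in wild-type and 371 RPKM in Eed-null villus, but 99.1 and 67.4 RPKM without Cd74, an antigen presentation gene that epithelium can also express. Proliferation genes summed to 97.2 and 68.0 RPKM with 1 of 8 called lower. Of 10 immediate early and other dissociation-response genes, Egr1, Dusp1 and Nr4a1 were called higher and none lower, with sums of 225 and 244 RPKM. That is 30% called higher, beside 7.9% of all tested genes. Nr4a1 had 0.180 RPKM in wild-type villus, below the lowest level that any tested gene had in its higher group (0.351 RPKM). It could not have been called lower, and of the other 9 genes 2 were called higher. The members Plk2, Plk3, Ier5 and Tob1 also respond as immediate early genes, and among the other 34 members 22 rose in Eed-null villus. The part of these cell types, of proliferation and of the dissociation response in the results below was not tested.

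In Eed-null villus, 25 of the 38 p53 targets rose, 1 fell and 12 were not called. The largest rises were those of Phlda3, Eda2r, Psrc1, Gdf15 and Mgmt, from 27.6-fold to 292-fold, whereas Trp53 itself was not called. These 5 genes are also the only members under 1 RPKM in wild-type villus, so their folds rest on low values. Where both groups reached 1 RPKM, 20 of 32 members rose. The share of members called higher was 65.8%, against a background of 7.9% of the 12525 genes tested, and the share called lower was 2.63% against 3.46%. Phlda3, Eda2r and Mgmt were testable only through their Eed-null level and could not have been called lower. Of the other 35 members 22 rose, and no background restricted in the same way was computed. The median log2 ratio of Eed-null to wild-type villus was 1.10 over the 38 members and -0.08 over the 12428 tested genes with a value above 0 in both groups. Among the risen members, the fold ranged from 1.73 to 292 with a median of 3.41, 20 rose at least 2-fold and 7 at least 8-fold. The 12 members that were not called divided evenly, with 6 above and 6 below their wild-type value. Because bulk tissue was sequenced, a change in the number of cells that express a gene and a change in RNA per cell cannot be told apart.

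**Figure D1:**
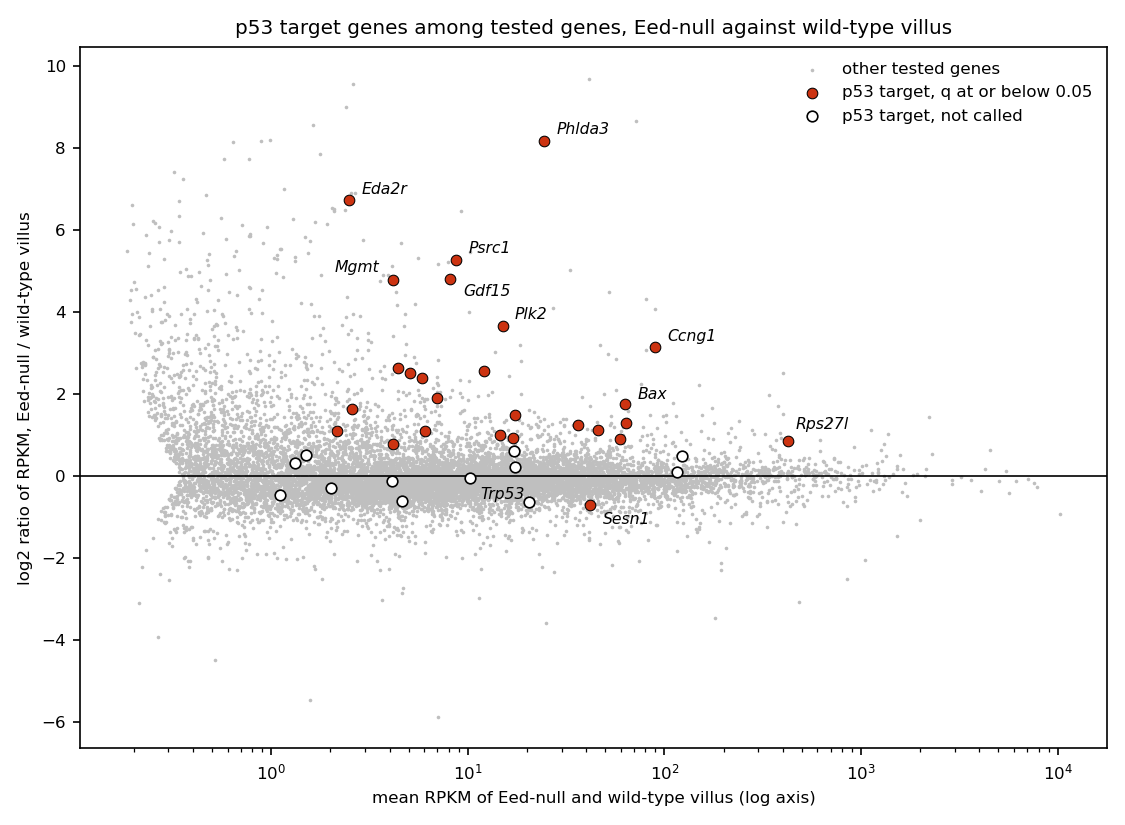
The log2 ratio of RPKM in Eed-null to wild-type villus (vertical axis) is plotted against the mean RPKM of both groups (horizontal log axis) for 12428 tested genes with values above 0 in both. Filled red points are the 26 called p53 targets, of which Sesn1 alone lies below 0, and open points are the 12 that were not called, which lie between -0.63 and 0.61.

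In the core of the circuit Mdm2 and Mdm4 rose, and Trp53 and Ppm1d were not called. Trp53 stood at 10.4 RPKM in wild-type and 10.03 RPKM in Eed-null villus (q = 0.971 in the authors' deposited table). Mdm2, the ubiquitin ligase that marks p53 for degradation and is itself a p53 target, rose 2.35-fold from 21.7 to 51.1 RPKM (q = 2.83e-06 in the authors' deposited table). Mdm4, the Mdm2 relative that masks the activation domain of p53, rose 2.82-fold from 9.08 to 25.6 RPKM (q = 1.73e-08 in the authors' deposited table). Ppm1d, the phosphatase that removes activating marks from p53 and its kinases, had 1.18 and 1.47 RPKM and was not called (q = 0.739 in the authors' deposited table). Trp53 lies on chromosome 11 from 69393860 to 69405375 and Mdm2 on chromosome 10 from 117125960 to 117147772, on build mm9.

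Genes of growth and stress signalling held the largest single rise. Phlda3, a pleckstrin-homology protein that keeps Akt from the membrane, went from 0.166 RPKM in wild-type to 48.6 RPKM in Eed-null villus, a 292-fold rise with q listed as 0 in the authors' deposited table. Its ratio ranked 7 among the 12428 tested genes with values above 0 in both groups. Gdf15, a secreted stress cytokine of the TGF-beta family, rose 27.9-fold from 0.563 to 15.7 RPKM, also with q listed as 0 in the authors' deposited table. The sestrins Sesn1 and Sesn2, stress proteins that restrain mTORC1 signalling, moved in opposite directions. Sesn2 rose 3.72-fold from 2.94 to 10.9 RPKM (q = 3.51e-09), and Sesn1, the more abundant of the pair in wild-type villus, fell 1.64-fold from 52.0 to 31.7 RPKM (q = 0.0134), both in the authors' deposited table. With q at or below 0.01 required, no member was called lower. Sesn3, a sestrin outside the members, had 1.99 RPKM in wild-type and 3.18 RPKM in Eed-null villus and was not called (q = 0.248 in the authors' deposited table). Ier5, an immediate early response gene, rose 1.89-fold to 22.1 RPKM (q = 0.00150 in the authors' deposited table). Tob1, an antiproliferative protein of the BTG family, was already at 102 RPKM in wild-type villus, had 143 RPKM in Eed-null villus and was not called (q = 0.193 in the authors' deposited table).

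Of the 6 members that act on the cell cycle, 5 rose. Psrc1, a microtubule-binding spindle protein, rose 38.9-fold from 0.438 to 17.0 RPKM, the kinase gene Plk2 rose 12.8-fold from 2.18 to 27.9 RPKM, and Ccng1, the cyclin that recruits a phosphatase to Mdm2, rose 8.90-fold from 18.1 to 161 RPKM. All 3 have a q of 0 in the authors' deposited table. Among the members, only Rps27l had a higher level than Ccng1 in Eed-null villus, at 544 RPKM. Gtse1, a microtubule-binding protein that moves p53 out of the nucleus, rose 6.19-fold from 1.23 to 7.60 RPKM (q = 4.98e-08 in the authors' deposited table). Plk3, the kinase related to Plk2, rose from 9.75 to 19.5 RPKM (q = 0.00106 in the authors' deposited table). It shares its locus entry with Tctex1d4, which had under 0.1 RPKM in both villus groups. Ckap2, a spindle protein, had 1.23 and 1.77 RPKM and was not called (q = 0.494 in the authors' deposited table). Psrc1, Gtse1 and Ckap2 are also expressed in dividing cells. None of the 8 proliferation genes was called higher in Eed-null villus, and Mki67, a marker of dividing cells, was called lower. These shares of 0% and 12.5% stand beside 7.9% and 3.46% of all tested genes. The part of dividing cells in the levels of Psrc1, Gtse1 and Ckap2 was not tested.

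Apoptosis effectors rose in 6 of 8 cases and none fell. Bax, which permeabilises the mitochondrial outer membrane, rose 3.41-fold from 28.7 to 97.7 RPKM (q = 5.85e-11 in the authors' deposited table). The BH3-only genes among the members also rose, Pmaip1 (Noxa) 2.19-fold from 28.9 to 63.4 RPKM (q = 5.74e-05) and Bbc3 (Puma) 2.13-fold from 1.38 to 2.94 RPKM (q = 0.0383 in the authors' deposited table). Trp53inp1, a nuclear cofactor of p53, rose 5.87-fold from 3.54 to 20.7 RPKM (q listed as 0), and the nuclease gene Aen 5.27-fold from 1.87 to 9.87 RPKM (q = 2.59e-12 in the authors' deposited table). Ei24, an endoplasmic reticulum protein, rose 1.87-fold to 77.3 RPKM (q = 0.00114 in the authors' deposited table). Neither of the remaining genes was called. Perp, a membrane protein of desmosomes, had 112 and 119 RPKM (q = 0.900), and Apaf1, the scaffold of the apoptosome, 16.0 and 18.7 RPKM (q = 0.677 in the authors' deposited table).

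Of the death receptors, Eda2r and Tnfrsf10b rose and Fas was not called. Eda2r, the receptor for ectodysplasin A2, went from 0.0459 to 4.92 RPKM, a 107-fold rise (q = 1.21e-07 in the authors' deposited table). Tnfrsf10b, the TRAIL receptor, rose 2.15-fold from 3.82 to 8.22 RPKM (q = 0.000819 in the authors' deposited table). Fas had 13.6 and 20.7 RPKM (q = 0.238 in the authors' deposited table). Eda2r, Phlda3 and Mgmt lay below 0.351 RPKM in wild-type villus, the lowest level that any tested gene had in its higher group. These 3 genes entered the test through their level in Eed-null villus, so a lower call was not possible for them. Among the other 35 members, 22 rose and 1 fell. Zmat3, a zinc-finger protein that binds RNA, rose 5.67-fold from 1.52 to 8.63 RPKM (q listed as 0), and Triap1, a mitochondrial inhibitor of apoptosis, had 24.7 and 16.0 RPKM (q = 0.124 in the authors' deposited table). Zmat3 shares its locus entry with 4930429B21Rik, which had 0.169 and 0.468 RPKM.

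Of the 7 genes of DNA repair and nucleotide supply, 4 rose and 3 were not called. Mgmt, which removes alkyl groups from guanine, rose 27.6-fold from 0.291 to 8.04 RPKM (q = 3.67e-10), and Polk, a translesion DNA polymerase, 3.12-fold from 1.25 to 3.91 RPKM (q = 6.28e-06 in the authors' deposited table). Within nucleotide excision repair, the endonuclease gene Ercc5 rose 1.73-fold to 5.25 RPKM (q = 0.0364), while the damage sensors Xpc and Ddb2 were not called (q = 0.730 and 0.673 in the authors' deposited table). Xpc had 2.20 and 1.81 RPKM and Ddb2 had 5.55 and 3.66 RPKM in wild-type and Eed-null villus. Ddb2 shares its locus entry with the phosphatase gene Acp2, at 10.9 and 9.14 RPKM, so its reads are less certain. Rrm2b, the p53-induced subunit of ribonucleotide reductase, had 1.29 and 0.934 RPKM and was not called (q = 0.522 in the authors' deposited table). Rps27l, a ribosomal protein paralogue that modulates p53 stability, was the most abundant member and rose 1.80-fold from 302 to 544 RPKM (q = 0.00311 in the authors' deposited table). Its reads may be shared with its close paralogue Rps27. Of the metabolic enzymes, the carbonyl reductase gene Dcxr rose 2.45-fold from 36.8 to 90.1 RPKM (q = 2.88e-06) and the ferredoxin reductase gene Fdxr had 4.30 and 3.98 RPKM (q = 0.925 in the authors' deposited table).

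The members are spread over 17 chromosomes of build mm9, with at most 6 on 1 of them. Chromosome 11 holds Trp53, Ccng1, Ppm1d, Tob1, Fdxr and Dcxr, of which Ccng1 and Dcxr rose. Phlda3 lies on chromosome 1 from 137662661 to 137665711, Gdf15 on chromosome 8 from 73153292 to 73155534 and Psrc1 on chromosome 3 from 108186721 to 108191149. Plk2 lies on chromosome 13 from 111185251 to 111191051, Ccng1 on chromosome 11 from 40562053 to 40568788 and Bax on chromosome 7 from 52717064 to 52722268. Mgmt, which rose 27.6-fold, spans chromosome 7 from 144086293 to 144319871, and Eda2r spans chromosome X from 94529179 to 94572548. Sesn1, the member that fell, spans chromosome 10 from 41530379 to 41628242. Plk3, Zmat3 and Ddb2 are the 3 members that share a locus entry with another gene.

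**Figure D2:**
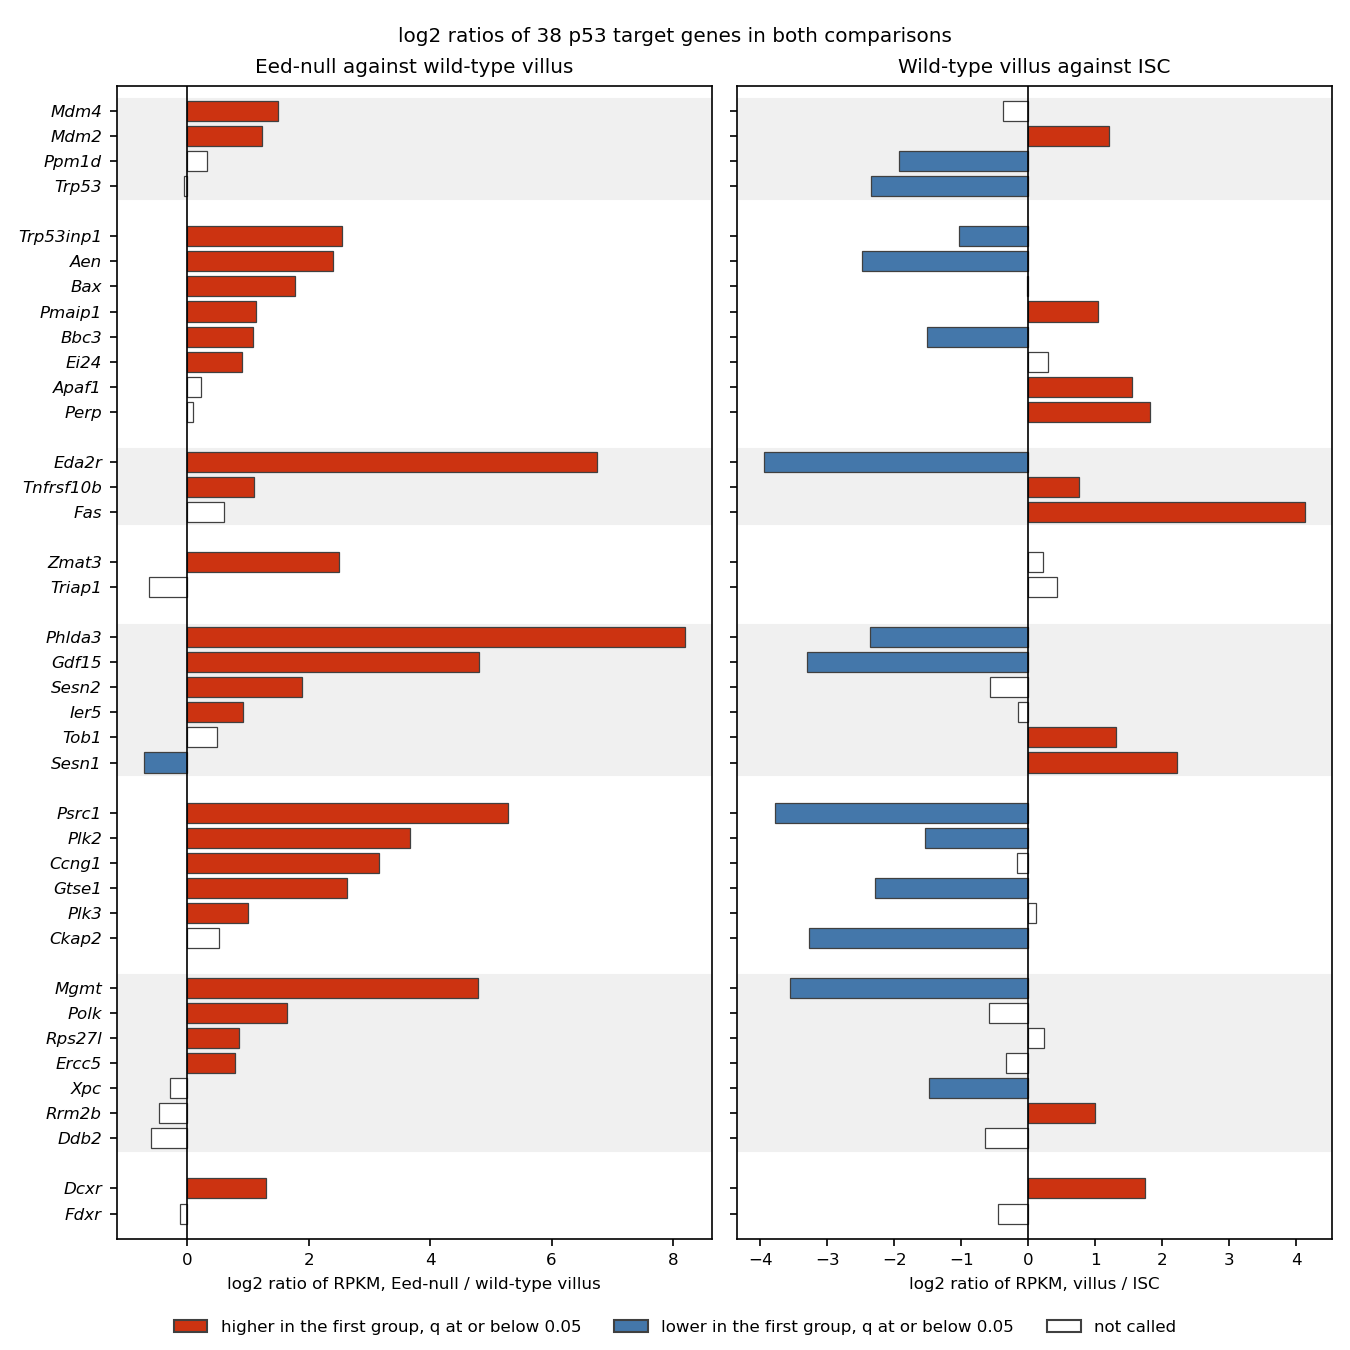
Bars give the log2 ratio of RPKM for each of the 38 p53 targets, grouped by role, in Eed-null against wild-type villus (left) and in wild-type villus against ISC (right), with filled bars where q is at or below 0.05. On the left 25 bars are red and 1 is blue, and on the right 10 are red and 14 are blue.

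Beyond these members, lists of further targets and of upstream regulators were examined. Of 45 measured further p53 targets, 38 were tested, 8 rose and none fell, which is 21.1% higher against 7.9% of all tested genes. They included Cdkn1a, the gene of the CDK inhibitor p21, which rose 3.97-fold from 137 to 545 RPKM (q = 2.31e-12), and Siva1, an apoptosis regulator, which rose 3.66-fold to 9.54 RPKM (q = 0.000224 in the authors' deposited table). Fam212b rose 23.2-fold from 0.0741 to 1.72 RPKM (q = 4.82e-13), and Gadd45b, a stress sensor, 2.16-fold to 13.6 RPKM (q = 0.00353 in the authors' deposited table). Fam212b lay below 0.351 RPKM in wild-type villus and so could not have been called lower. Of the 36 further targets at or above that level in both groups, 7 rose. The median log2 ratio of the tested further targets with values above 0 in both groups was 0.20. Upstream, 0 of 14 kinases and DNA damage sensors rose and 2 fell (14.3%), beside 7.9% and 3.46% of all tested genes. Prkdc, the catalytic subunit of DNA-dependent protein kinase, and Hipk2, a p53 kinase, fell 2.16-fold and 1.69-fold (q = 0.00635 and 0.0382 in the authors' deposited table). Of 22 stability factors and cofactors of p53, 20 were tested and Cdkn2a alone was called. That is 5% higher and 0% lower, beside 7.9% and 3.46% of all tested genes, and without Cdkn2a 0 of 19 rose. Cdkn2a rose 410-fold from 0.350 to 143 RPKM, with q listed as 0 in the authors' deposited table, and it too lay below the lowest tested level in wild-type villus. Its value covers the whole gene, so the level of Arf transcripts alone is not known.

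The start sites of the members were searched for the p53 decamer, the unit that occurs as a pair in a p53 response element. RefSeq windows on build GRCm38.p6, each from 250 bases before to 50 bases after an annotated start, were at hand for 30 members in 41 windows. Pmaip1, Perp, Tnfrsf10b, Ddb2, Trp53inp1, Rrm2b, Xpc and Zmat3 had no entry. An exact decamer, whose pattern reads the same on both strands, lay in 14 of the 41 windows (34.1%), against 8.36% of all 32851 windows and 6.75% of the 11776 windows of tested genes. The overlapping windows of Aen held the same decamer, which counts in each. Counted by gene, 9 of 21 risen members and 4 of 9 other members held one (42.9% and 44.4%). By gene the shares were 9.55% of all genes with a window and 8.09% of tested genes. No member window held a pair of decamers separated by at most 13 bases, which occurred in 0.0731% of all windows. The following windows show the decamers of all 13 members that held one, risen members first, then Sesn1, which fell, and Ppm1d, Trp53 and Ckap2, which were not called, with the decamer in capitals and each sequence read in the direction of the gene.
Mdm2 (chr10:117710915-117710964, minus strand): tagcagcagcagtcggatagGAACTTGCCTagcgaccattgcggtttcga
Ccng1 (chr11:40755442-40755491, minus strand): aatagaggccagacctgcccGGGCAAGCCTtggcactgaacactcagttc
Bax (chr7:45467070-45467119, minus strand): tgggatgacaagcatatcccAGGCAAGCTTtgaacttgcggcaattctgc
Ei24 (chr9:36797315-36797364, minus strand): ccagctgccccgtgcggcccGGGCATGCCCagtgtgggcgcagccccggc
Aen (chr7:78895917-78895966, plus strand): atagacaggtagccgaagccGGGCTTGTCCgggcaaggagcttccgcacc
Rps27l (chr9:66946183-66946232, plus strand): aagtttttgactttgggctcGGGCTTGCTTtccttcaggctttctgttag
Rps27l (chr9:66946286-66946335, plus strand): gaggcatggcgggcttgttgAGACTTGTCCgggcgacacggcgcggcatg
Gtse1 (chr15:85859935-85859984, plus strand): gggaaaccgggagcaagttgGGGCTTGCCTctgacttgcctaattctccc
Ier5 (chr1:155099773-155099822, minus strand): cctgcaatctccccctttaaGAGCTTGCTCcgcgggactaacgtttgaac
Polk (chr13:96519389-96519437, minus strand): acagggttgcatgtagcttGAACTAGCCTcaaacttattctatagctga
Sesn1 (chr10:41887246-41887295, plus strand): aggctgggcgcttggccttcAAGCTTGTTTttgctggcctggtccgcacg
Ppm1d (chr11:85311102-85311151, plus strand): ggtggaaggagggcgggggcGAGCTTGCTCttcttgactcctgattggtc
Trp53 (chr11:69580264-69580313, plus strand): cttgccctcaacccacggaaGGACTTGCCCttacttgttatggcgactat
Ckap2 (chr8:22185993-22186042, minus strand): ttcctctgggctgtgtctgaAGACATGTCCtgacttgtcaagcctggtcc
The Ei24 decamer is its own reverse complement and begins 10 bases before the start, and those of Mdm2, Ccng1 and Bax begin 185 to 201 bases before it. Rps27l alone held a pair of decamers in 1 window, which begin 210 and 107 bases before the start.

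Phlda3 and Gdf15, both with large rises, held no exact decamer in their windows and differed in their content of CG dinucleotides. Eda2r and Psrc1, which rose more than Gdf15, held none either, with 5 CG dinucleotides for Eda2r and 23 in each Psrc1 window. The Phlda3 window held 26 CG dinucleotides and the Gdf15 windows 7 and 1, against a median of 22 over the 41 member windows and 20 over the windows of tested genes. A whole window of Phlda3 and of Gdf15 is shown with every CG in capitals, for Gdf15 the window with 7.
Phlda3 (chr1:135765835-135766134, plus strand): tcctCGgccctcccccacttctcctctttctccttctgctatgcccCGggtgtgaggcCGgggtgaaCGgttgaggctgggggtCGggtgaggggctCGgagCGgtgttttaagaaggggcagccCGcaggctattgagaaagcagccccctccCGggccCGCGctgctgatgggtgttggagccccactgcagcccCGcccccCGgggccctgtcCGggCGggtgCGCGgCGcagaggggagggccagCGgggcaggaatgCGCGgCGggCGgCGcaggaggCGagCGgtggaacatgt
Gdf15 (chr8:70632046-70632345, minus strand): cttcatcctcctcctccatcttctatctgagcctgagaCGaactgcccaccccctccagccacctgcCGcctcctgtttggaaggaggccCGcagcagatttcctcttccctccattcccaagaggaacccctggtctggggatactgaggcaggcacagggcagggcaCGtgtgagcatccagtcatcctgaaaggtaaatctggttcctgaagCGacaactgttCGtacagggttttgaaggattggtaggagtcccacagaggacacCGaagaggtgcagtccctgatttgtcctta
A match or its absence describes only these letters in these windows, and p53 response elements can also lie in introns and farther upstream. The last bases of the Phlda3 window match the start of a decamer, and a decamer that crosses a window edge would not be found.

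Between wild-type villus and ISC, p53 targets were divided. Of the 38 members, 10 were called higher in villus, 14 higher in ISC and 14 were not called. The 26.3% higher in villus and 36.8% higher in ISC stand beside 30.5% and 32.3% of the 13007 genes tested. In either direction 63.2% of members and 62.8% of tested genes were called, a share near the background. With at least 1 RPKM required in both groups, 31 members remained. Of these, 9 in place of 14 were called higher in ISC and 8 in place of 10 higher in villus. The median log2 ratio of villus to ISC was -0.35 over the members and -0.10 over 12846 tested genes with values above 0 in both groups, and -0.17 over the members without Ckap2, Gtse1 and Psrc1. Immediate early and other dissociation-response genes were higher in ISC in 10 of 10 cases, with a summed level of 1277 against 262 RPKM, and all 8 proliferation genes were higher in ISC, at 426 against 113 RPKM. Their part in the differences between villus and ISC was not tested.

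Trp53 stood at 61.8 RPKM in ISC against 12.1 RPKM in villus, a 5.11-fold difference with q listed as 0 in the authors' deposited table. Ppm1d stood at 5.21 against 1.37 RPKM, 3.80-fold higher in ISC (q = 6.33e-08), and Mdm2 was 2.30-fold higher in villus, at 25.2 against 11.0 RPKM (q = 8.95e-07 in the authors' deposited table). The gene for p53 and the gene for its ligase thus had their higher level in different groups. Mdm4 was not called, at 10.5 RPKM in villus against 13.7 RPKM in ISC (q = 0.155 in the authors' deposited table).

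By fold, the members higher in ISC were led by Eda2r, Psrc1, Mgmt, Gdf15 and Ckap2. Eda2r and Phlda3 lay below 0.246 RPKM in villus, the lowest level that any tested gene had in its higher group, so they were testable only through ISC. Among the other 36 members, 12 were higher in ISC and 10 in villus. Psrc1 stood at 7.00 RPKM in ISC against 0.509 RPKM in villus, and Ckap2 at 13.9 against 1.43 RPKM, each with q listed as 0 in the authors' deposited table. Mgmt stood at 4.00 RPKM in ISC against 0.338 RPKM in villus (q = 5.41e-06), and Gdf15 at 6.48 against 0.655 RPKM (q = 6.74e-10 in the authors' deposited table). Gtse1, Plk2, Aen and Phlda3 were 2.90-fold to 5.61-fold higher in ISC, with q from 7.63e-15 to 0.00305 in the authors' deposited table. Bbc3, Trp53inp1 and the damage sensor gene Xpc were 2.05-fold to 2.86-fold higher there. Eda2r lies on the X chromosome and stood at 0.822 RPKM in ISC against 0.0534 RPKM in villus (q = 0.00194 in the authors' deposited table). The level of Xist, the RNA that coats the inactive X chromosome, was 39.5 RPKM in ISC against 5.72 RPKM in villus, and 4 Y-linked genes were listed at 0 in ISC and at 3.17 to 20.2 RPKM in villus. The sex of the mice is not given in the labels, and the part of this difference in the values of Eda2r and the other members was not tested.

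The members higher in villus were led by Fas, at 15.8 RPKM against 0.900 RPKM in ISC, a 17.6-fold difference (q = 1.48e-14 in the authors' deposited table). Of 8 leukocyte markers, 6 were called higher in villus, among them Cd3e, Cd3g and Cd8a of T cells, and the median log2 ratio of villus to ISC was 2.42. The markers summed to 296 RPKM in villus against 261 RPKM in ISC, and to 115 against 25.8 RPKM without Cd74. Lymphocytes also express Fas, and their part in its level was not tested. Sesn1 was 4.65-fold higher in villus, at 60.5 against 13.02 RPKM (q listed as 0), and Perp 3.52-fold, at 130 against 36.8 RPKM (q = 7.63e-15 in the authors' deposited table). Apaf1 (2.93-fold), Tob1 (2.48-fold), Dcxr (3.35-fold) and Pmaip1 (2.05-fold) were also higher in villus, with q from 2.25e-11 to 2.59e-05 in the authors' deposited table. Rrm2b and Tnfrsf10b were 1.99-fold and 1.70-fold higher, with q of 0.0304 and 0.0286 in the authors' deposited table. Bax and Ccng1 were not called, Bax at 33.3 RPKM in villus against 33.7 RPKM in ISC and Ccng1 at 21.03 against 23.7 RPKM (q = 0.964 and 0.526 in the authors' deposited table).

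For a view of all 3 groups, the Eed-null values were multiplied by 1.16193, the ratio of the wild-type villus values of the 2 tables. The tables were normalized separately and share wild-type villus, so these levels are a description with no test. Eed-null villus had the highest of the 3 values for 27 members, ISC for 8 and wild-type villus for 3. Rescaled Eed-null levels were at least 2-fold those of ISC for 25 members, within 2-fold for 8, and at or below 0.5 of the ISC level for 5. Neither set of counts was made over all genes, so whether these shares are particular to the members is not known. Phlda3 stood at 0.997 RPKM in ISC, 0.193 RPKM in wild-type villus and 56.4 RPKM in Eed-null villus. Ccng1 stood at 23.7, 21.03 and 187 RPKM and Bax at 33.7, 33.3 and 113 RPKM in the same order. For these 3 genes the Eed-null level lay above both other groups.

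Other members reached in Eed-null villus about the level of ISC. Aen stood at 12.2 RPKM in ISC, 2.18 RPKM in wild-type villus and 11.5 RPKM in Eed-null villus, and Gtse1 at 7.00, 1.43 and 8.83 RPKM. Bbc3 stood at 4.59, 1.60 and 3.41 RPKM in the same order. A few members had their highest level in ISC and remained low in both villus groups. Trp53 stood at 61.8, 12.1 and 11.7 RPKM, Ckap2 at 13.9, 1.43 and 2.06 RPKM, and Xpc at 7.15, 2.55 and 2.10 RPKM. Sesn1, Triap1 and Rrm2b had their highest level in wild-type villus, Sesn1 at 60.5 RPKM against 36.8 RPKM in Eed-null villus and 13.02 RPKM in ISC.

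**Figure D3:**
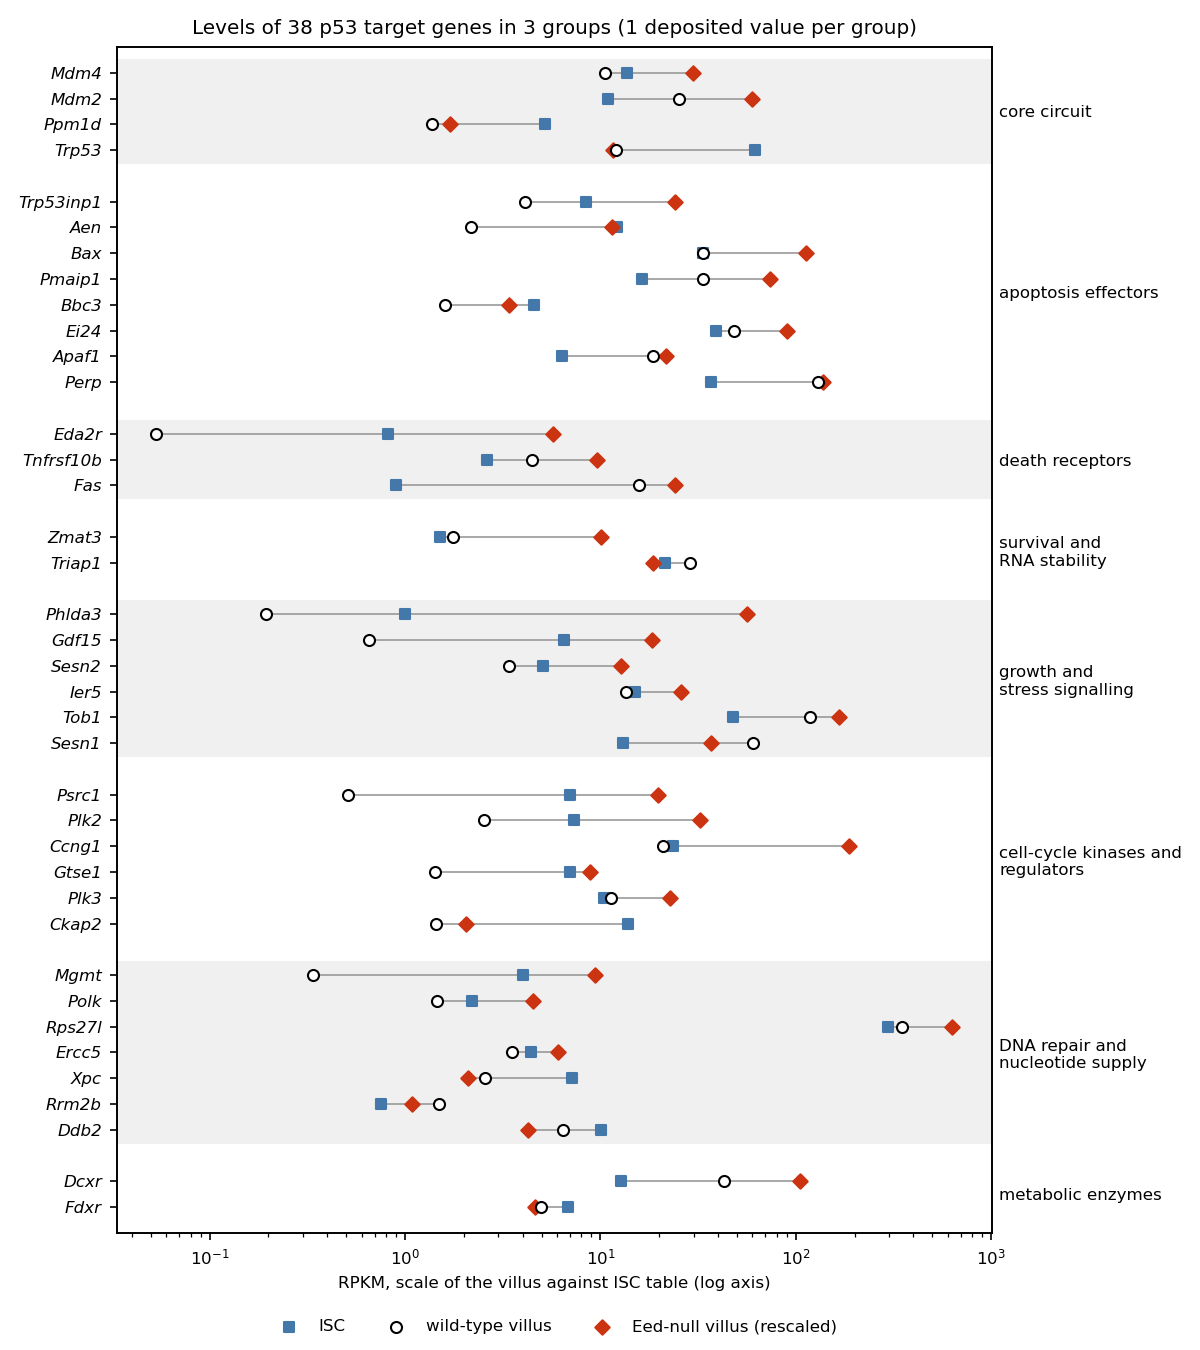
Levels of the 38 p53 targets in RPKM (horizontal log axis) are shown by role, with 1 deposited value per group for ISC (squares), wild-type villus (open circles) and Eed-null villus (diamonds, multiplied by 1.16193). The Eed-null value is the highest of the 3 for 27 members, a count not made over all genes. For Trp53 both villus values, 12.1 and 11.7 RPKM, lie below the ISC value of 61.8 RPKM.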

How the data were processed

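Polyadenylated RNA of 9 libraries was read as 75 bp single-end reads, without strand, per the labels' protocols, and 14 chromatin and input libraries were not used here. The authors deposited 1 RPKM value per group and gene in 2 tables. The unit of the Eed-null table is inferred from its wild-type villus values, since the other table's values exceed them by the factor 1.16193 (lowest 1.16192, highest 1.16194) in 10297 genes. Build mm9 and, without roles, TopHat2 2.0.6, Cufflinks 2.0.1 and Cuffdiff are named per the submitters' processing notes, with no annotation named. Each gene's p-value and q-value are the authors', and recomputing the Benjamini-Hochberg adjustment over tested entries gave the deposited q-values to within 2.12e-06. Libraries have no values of their own, so no model was fitted and no replicate error is given, depth is unknown, and the p-values measure only the spread that the authors' test used.

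A call needs status OK and q at or below 0.05. Folds and log2 ratios are ratios of deposited RPKM with no pseudocount. From each of the tables, 1 entry without a gene name was left out. The p53 decamer was searched exactly, and with 1 mismatch, in RefSeq start windows. Python 3.11.15 with pandas 2.3.3 was used, and adjustment and search were tested on simulated data. The members, gene lists, role groups, alternatives and the rule for named genes were chosen with earlier results of these data known. All members are named with their values by role, with up to 4 called genes of each further list. Tctex1d4, 4930429B21Rik, Acp2, Xist and the Y-linked genes were added, and Cd74 was set apart, after values were seen. Alternatives varied the q threshold, low-value filter, adjustment, pseudocount, centring and member set.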

Additional observations from a re-analysis of the deposited data

How the results depend on the processing

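The count of 25 risen members in Eed-null villus ranged from 20 to 25 over 9 alternatives, among them stricter and looser q thresholds, filters at 1 RPKM and a new adjustment over genes at 1 RPKM or more. At q at or below 0.01, 0 members were called lower in place of 1 (Sesn1, q = 0.0134), and Bbc3 and Ercc5 were no longer called higher. Between villus and ISC, requiring 1 RPKM in both groups left 9 of 14 members higher in ISC and 8 of 10 higher in villus. The median log2 ratio of villus to ISC went from -0.35 to -0.17 without Ckap2, Gtse1 and Psrc1, since that alternative removes members that are high in ISC. At q at or below 0.01, Tnfrsf10b and Rrm2b were no longer called there. Centring on the median of genes whose groups both reach 1 RPKM, -0.10 in the Eed-null comparison, turned the log2 ratio of Trp53 from -0.053 to 0.051, neither called, and no other member's direction in either comparison. With 1 mismatch allowed, 24 of 41 member windows held a decamer, against 50.9% of all windows. The alternative limited to members whose lower group reached the lowest tested level was chosen after seeing the data. No paired analysis was possible because the tables give 1 value per group, and for the same reason no library could be left out in turn. Depth is unknown, so the precision of members under 1 RPKM, 5 of them in wild-type villus, cannot be stated.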
